A study of Homo sapiens with 9 samples.

Results

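RNA of P493-6, an established line of human B lymphocytes, was compared between 3 arrays labelled low Myc and 2 arrays labelled no Myc. These 5 arrays were taken by their labels from the 9 of the study, and every gene that could be named, 19775 in all, was tested between them. The other 4 arrays are labelled high Myc and are not part of the fit on the 5 arrays. They are given as values for a few genes and count in the choice of each gene's probe set. They also serve to estimate the spread in a fit of all 9 arrays and in fits that leave out an array labelled no Myc. Total RNA of each sample was hybridised to a single-colour Affymetrix array of 54675 probe sets. Each label holds a Myc level and a replicate number, with no agent, exposure time or origin of the replicates. The p-values therefore rest on a spread between arrays that may be technical. Intensity is the linear value per probe set that the authors deposited after RMA, a method that subtracts background and gives all arrays a like distribution. A difference is the mean log2 intensity in low Myc minus that in no Myc, with its standard error (SE), and an adjusted p under 0.05 was the threshold of a call. Every called gene had groups that did not overlap, so each call named below holds in all 3 low Myc arrays against both others. A change in total RNA per cell cannot be seen in such values, and fewer cells with a transcript cannot be told apart from less of it per cell.

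MYC is a transcription factor that binds DNA with its partner MAX, mostly at E-boxes, and is best known for raising genes of ribosome production, nucleotide synthesis, mitochondria and cell division. P493-6 cells carry a MYC transgene that tetracycline switches off. They also carry an estrogen-dependent EBNA2. This viral factor, from Epstein-Barr virus, drives B-cell activation genes through the DNA-binding protein RBPJ. In published use of the line, a low MYC state is usually reached with the transgene off and EBNA2 on, and a state without MYC with both off. The labels used here do not say which agents were given, so it is not known here whether EBNA2 was active in either group.

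MYC (Entrez gene 4609) did not separate the groups. Its intensity was 2126, 2526 and 1442 on low Myc replicates 1, 2 and 3 and 2803 and 416 on no Myc replicates 1 and 2. The library labelled no Myc replicate 1 thus read above every low Myc array, against its label, and only no Myc replicate 2 read below them. The mean log2 intensity was 10.95 ± 0.41 in low Myc (SD, n = 3) and 10.08 ± 1.95 in no Myc (SD, n = 2). The difference was 0.87 ± 0.78 (adjusted p = 0.662), and it was -0.50 against the library labelled no Myc replicate 1 and 2.25 against no Myc replicate 2. On the high Myc arrays MYC read 12755, 11326, 15404 and 12186. Every comparison below uses the labelled groups, and the values against each array labelled no Myc are given beside the main gene lists. Among the 12 measured members of the MYC network 1 was called, MLXIP, a glucose-sensing relative that pairs with MLX, at -0.91 ± 0.17. That share of 8.33% lower is near the 6.6% of all genes tested. MAX differed by -0.63 ± 0.21 (adjusted p = 0.117).

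The arrays of both groups read as B cells. Of 6 measured B-cell markers, the receptor subunits CD79A and CD79B, surface protein MS4A1 (CD20) and lineage factor PAX5 were lower in low Myc. CD79A, MS4A1 and PAX5 were still bright on all 5 arrays, whereas CD79B read 305, 364 and 341 in low Myc against 2807 and 1995. For CD79B and PAX5 another probe set of the gene differed little (0.15 and -0.12). MS4A1, for example, read 4149, 4801 and 3917 against 10885 and 8736 (-1.19). CD22 and CD74 were not called, at -0.07 (adjusted p = 0.93) and -0.38 (adjusted p = 0.0818). Correlations of log2 intensity across the genes were 0.976 to 0.985 among low Myc arrays, 0.988 between the arrays labelled no Myc and 0.917 to 0.951 between groups. For GAPDH, the log2 excess of 3' over 5' signal, a sign of RNA quality, was 0.25 and 0.42 in no Myc and 0.01 to 0.15 in low Myc, while for ACTB it was 0.00 and -0.01 against -0.07 to 0.02. The part of this end difference in the results was not tested.

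Of the 19775 genes tested, 2925 (14.8%) differed between low Myc and no Myc. Low Myc was higher at 1620 of them (8.19% of all genes tested) and lower at 1305 (6.6%). At least 2-fold differences made up 1023 of the higher and 782 of the lower calls. Large falls outnumbered large rises, with 77 genes at least 8-fold lower and 25 at least 8-fold higher. All 3 low Myc arrays read above both no Myc arrays at 3959 genes (20%) and below them at 3485 (17.6%). The genes nearest the threshold were ADPGK (-0.52 ± 0.13, adjusted p = 0.0498) inside it and LINC00621 (1.01 ± 0.25, adjusted p = 0.05) outside it. Of 1890 called genes read by several probe sets, 1465 had all of them differ in one direction.

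**Figure D1:**
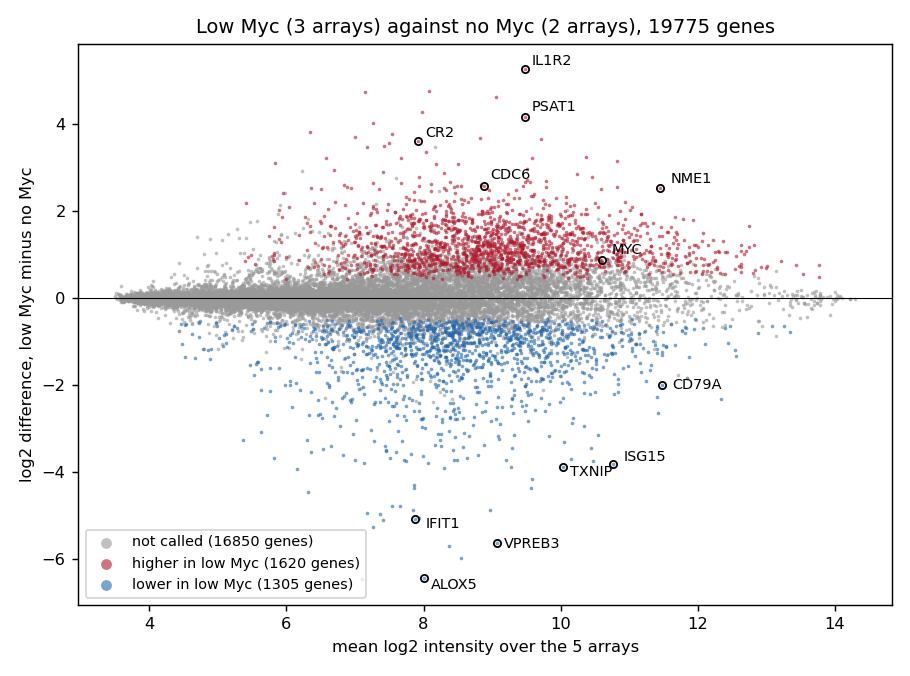
Each point is 1 of 19775 genes, with its mean log2 intensity over the 5 arrays on the horizontal axis and its log2 difference (low Myc minus no Myc) on the vertical axis, and colour marks the 1620 genes called higher and the 1305 called lower. The largest falls reach below -6 and the largest rises stay under 6, while MYC, among the labelled genes, lies in the grey mass of genes not called.

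With so few arrays the calls rest on both no Myc arrays. Without the library labelled no Myc replicate 1 no gene was called by limma on the remaining 4 arrays (0, with 3367 at an unadjusted p under 0.05), while 174 were called without no Myc replicate 2. Without low Myc replicate 1, 2 or 3 the calls were 767, 1971 and 3645. With all 9 arrays fitted, to use the high Myc arrays for the spread, 2228 genes were higher and 1691 lower. That step alone moved list counts in both directions. Higher members went from 11 to 5 in the EBNA2-linked list, 5 to 3 in the chemokine list and 29 to 31 in the nucleolar list. Calls lost in the fits that also leave out a no Myc array cannot be put down to that array alone. When the high Myc arrays were added to estimate the spread, 1021 genes were higher (5.16%) and 834 lower (4.22%) without the library labelled no Myc replicate 1. Of those 1855 genes, 1738 were called in the same direction on the 5 arrays. Without no Myc replicate 2 the same fit gave 1400 higher (7.08%) and 1266 lower (6.4%), of which 2213 were shared. List counts from these 2 fits are given below in the form "20 and 27 without each array labelled no Myc in turn", replicate 1 first.

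**Figure D2:**
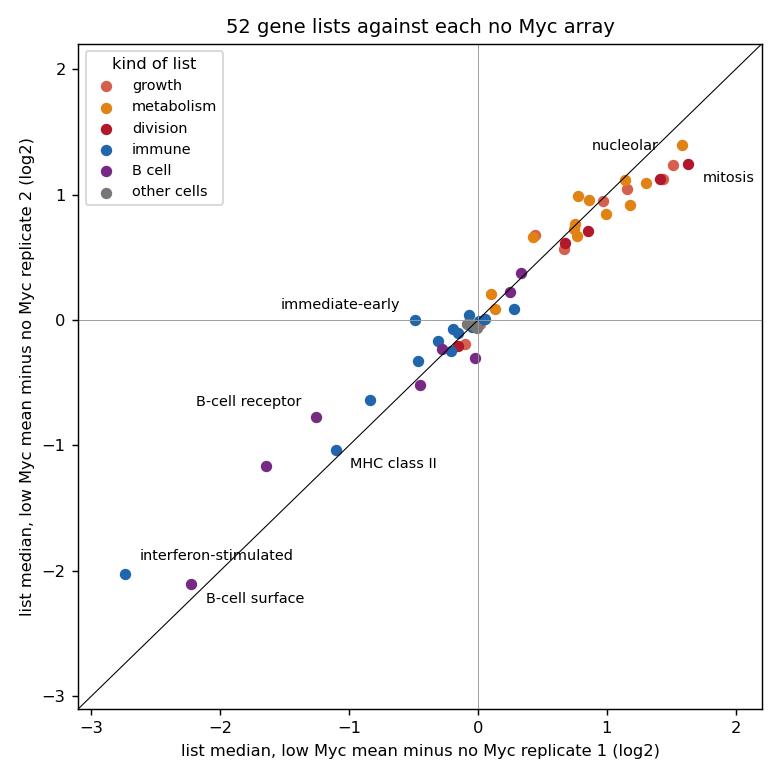
Each point is 1 of 52 gene lists, placed by its median log2 difference of low Myc from the library labelled no Myc replicate 1 (horizontal axis) and from no Myc replicate 2 (vertical axis), and the line marks equal values. The nucleolar list lies at the upper right, at 1.51 and 1.24, and the interferon-stimulated list at the lower left, at -2.74 and -2.03, while the EBNA2-linked list is at 0.34 and 0.38.

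The 15 largest rises among genes with a mean log2 of at least 6 in both groups were of many kinds. IL1R2, a decoy receptor for interleukin 1, read 3605, 2075 and 3849 in low Myc and 64.3 and 101 in no Myc (5.25 ± 0.33, 38.1-fold, adjusted p = 0.00246). All 3 low Myc arrays were far above both others, and the high Myc arrays split, with 50.2, 1434, 62.2 and 56.6. PSAT1, which makes phosphoserine, read 3031, 1639.7 and 2303 against 97.3 and 165 (17.8-fold). BCAT1, which starts the breakdown of branched-chain amino acids, read 3603, 3757 and 2519 against 352 and 339 (9.39-fold), with no overlap. RIOX1, a nucleolar oxygenase, had the tightest values of the largest rises, 4777, 4059 and 4202 against 507 and 478 (3.14 ± 0.13). TIMP1, an inhibitor of matrix metalloproteinases, was 9.32-fold higher and ATP1B1, a subunit of the sodium pump, 12.5-fold higher. The others were the ubiquitin ligase HECW2 (4.61), the B-cell signalling protein GCSAM (3.68), the retrotransposon-derived PEG10 (3.35), the G1 kinase CDK6 (3.08) and CHAC2, which breaks down glutathione (3.07). They also included the amino acid carrier SLC7A1 (2.96), the death-associated kinase DAPK1 (2.86), the endosomal GTPase RAB9A (2.85) and the mitochondrial enzyme CLYBL (2.79).

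The 15 largest falls among such genes were of many kinds too. TBC1D9, a predicted Rab GTPase regulator, read 54.9, 75.5 and 88.7 in low Myc and 4989.5 and 4032 in no Myc (-5.97 ± 0.23, 62.6-fold lower, adjusted p = 0.00122). TXNIP, which binds thioredoxin and limits glucose uptake, read 402, 242 and 468 against 6716 and 4148 (14.8-fold lower). Neither gene came near an overlap between the groups. LTB, the membrane partner of lymphotoxin, read 134, 457 and 192 against 5810.5 and 3771 (20.6-fold lower). JCHAIN, which joins IgM and IgA into polymers, read 37.8, 348 and 166 against 3916 and 3660.4 (29.2-fold lower), with a wide spread in low Myc. Known interferon-induced genes among the largest falls were IFI44L (-5.69), XAF1 (-4.28) and ISG15 (-3.80), and genes of the B lineage were VPREB3 (-5.63), CD24 (-4.14), FCRL2 (-3.73) and the light chain gene IGLC1 (-3.75). The others were CSGALNACT1 of chondroitin sulfate synthesis (-4.35), the phospholipase PLAAT4 (-3.89), SEL1L3 (-3.87) and MTSS1, which links membranes and actin (-3.80). IGLC1 is uncertain, since its 9 probe sets ranged from -3.75 to 0.07 and immunoglobulin constant genes have near-identical copies. Of these 30 largest changes in either direction 20 were read by several probe sets, which all differed in one direction for 18. The ranges over probe sets were wide for TBC1D9 (-5.97 to -0.26), LTB (-4.36 to -0.27), SEL1L3 (-3.87 to -0.13), MTSS1 (-3.80 to -0.25), HECW2 (-0.05 to 4.61), SLC7A1 (0.09 to 2.96) and CLYBL (0.30 to 2.79), and narrow for TXNIP (-4.07 to -3.64).

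**Figure D3:**
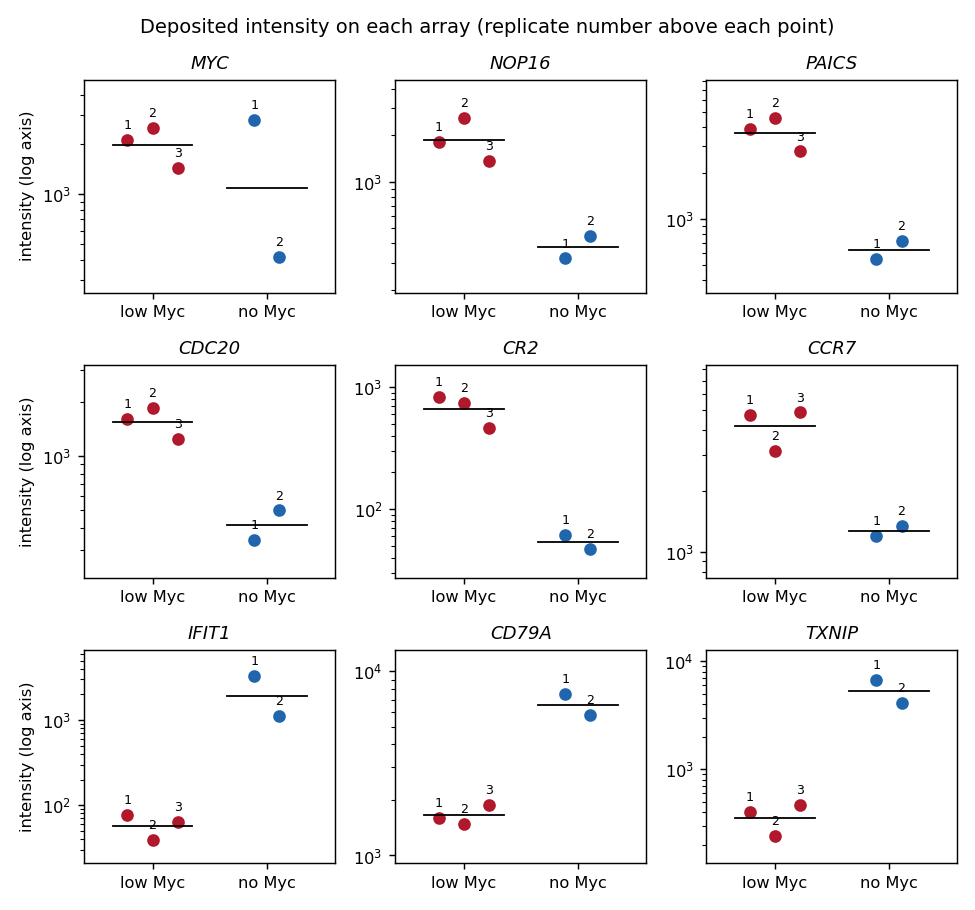
The deposited intensity of 9 genes on each array is shown on log axes, with a point per array, its replicate number and a line at the group's geometric mean. MYC is the gene whose groups overlap, with 2803 and 416 in no Myc, whereas the groups of the 8 other genes are apart.

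Most factors that build ribosomes were higher in low Myc, while no cytosolic ribosomal protein was called. Of 33 nucleolar ribosome biogenesis factors, 29 were higher and 0 lower, with a median difference of 1.47 beside -0.00 over all genes. The counts were 20 and 27 without each array labelled no Myc in turn. NOP16, a nucleolar protein of the large subunit, read 1818, 2572 and 1368 against 320.2 and 445 (2.30 ± 0.30, adjusted p = 0.00967). LYAR, a nucleolar zinc-finger protein, read 785, 1684 and 741 against 125 and 249 (2.49 ± 0.46). DDX21, an RNA helicase of ribosomal RNA processing, read 3619, 4313 and 2217 against 963 and 685 (4.01-fold). Low Myc replicate 2 was the highest array for all 3 genes and replicate 3 the lowest of low Myc, still above both others. RRP1B (4.38-fold) and MRTO4 (4.35-fold) were higher too. By contrast, 0 of 32 cytosolic ribosomal proteins were higher and 0 lower by limma, with 0 at an unadjusted p under 0.05, differences from -0.22 to 0.26 and a median of -0.00.

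Promoters were read from RefSeq sequences of GRCh38.p14, and the 250 bases before each gene start were searched on both strands, with overlapping matches allowed. The E-box CACGTG, the classical MYC and MAX site, was in 3 of 28 nucleolar promoters found (10.7%) beside 6.49% of all 27305 promoters, 7.83% of the 15384 promoters of genes tested and 10.7% of those of all genes called higher. The nucleolar share thus equals that of the genes called higher. The promoter of UTP4, a factor of small-subunit processing that was 1.67 higher, is shown because it holds an E-box (capitals). The first base of the E-box lies 16 bases before the start. The 200 bases are chr16:69132449-69132648 on the + strand, written 5′ to 3′.
UTP4: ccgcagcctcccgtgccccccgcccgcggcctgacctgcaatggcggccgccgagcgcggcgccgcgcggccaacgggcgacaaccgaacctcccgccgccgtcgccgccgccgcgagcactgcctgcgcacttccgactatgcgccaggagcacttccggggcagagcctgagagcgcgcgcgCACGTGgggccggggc

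RNA polymerases I and III transcribe ribosomal and transfer RNA. Of 27 genes of these polymerases and their initiation factors 11 were higher and 0 lower, with a median of 0.58. The higher genes were 10 of 17 subunits and the factor GTF3A (1.18). POLR1B, the second-largest subunit of polymerase I, read 775, 1078 and 568 against 149 and 167 (2.31 ± 0.27, 4.95-fold). POLR1F (2.05), POLR1G (1.79) and POLR3E (1.35) were higher too, as was POLR3G (2.52), whose fold is not exact at a no Myc mean log2 of 4.85. Among 12 pseudouridine synthases, which modify uridines in RNA, 3 were higher. PUS7 read 678, 974 and 389.8 against 97.9 and 124 (2.53 ± 0.39), and TRUB2 (0.61) and PUS3 (0.79) were higher by less. The count of 3 was 1 and 3 without each array labelled no Myc in turn.

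Most aminoacyl-tRNA synthetases, which charge transfer RNA, and most chaperones were higher, and translation factors in part. Of 17 aminoacyl-tRNA synthetases 15 were higher (median 1.10), led by VARS1 for valine, at 868, 814 and 466 against 127 and 132 (5.33-fold), FARSB (3.31-fold) and GARS1 (3.22-fold). Translation factors were higher in 8 of 17 cases (median 0.92). EIF2S1, the alpha subunit of eIF2, read 2556, 3061 and 2074 against 796 and 959.6 (2.90-fold), and EIF4EBP1, which holds back eIF4E, was 2.54-fold higher. Of 18 chaperones 14 were higher (median 1.27). HSPD1, the mitochondrial chaperonin, read 11328, 12862 and 8905 against 3169 and 3778 (3.15-fold), and its co-chaperonin HSPE1 was 3.79-fold higher. None of these 3 lists had a member called lower. The counts of higher members without each array labelled no Myc in turn were 9 and 12 for synthetases, 6 and 6 for translation factors and 13 and 15 for chaperones.

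**Figure D4:**
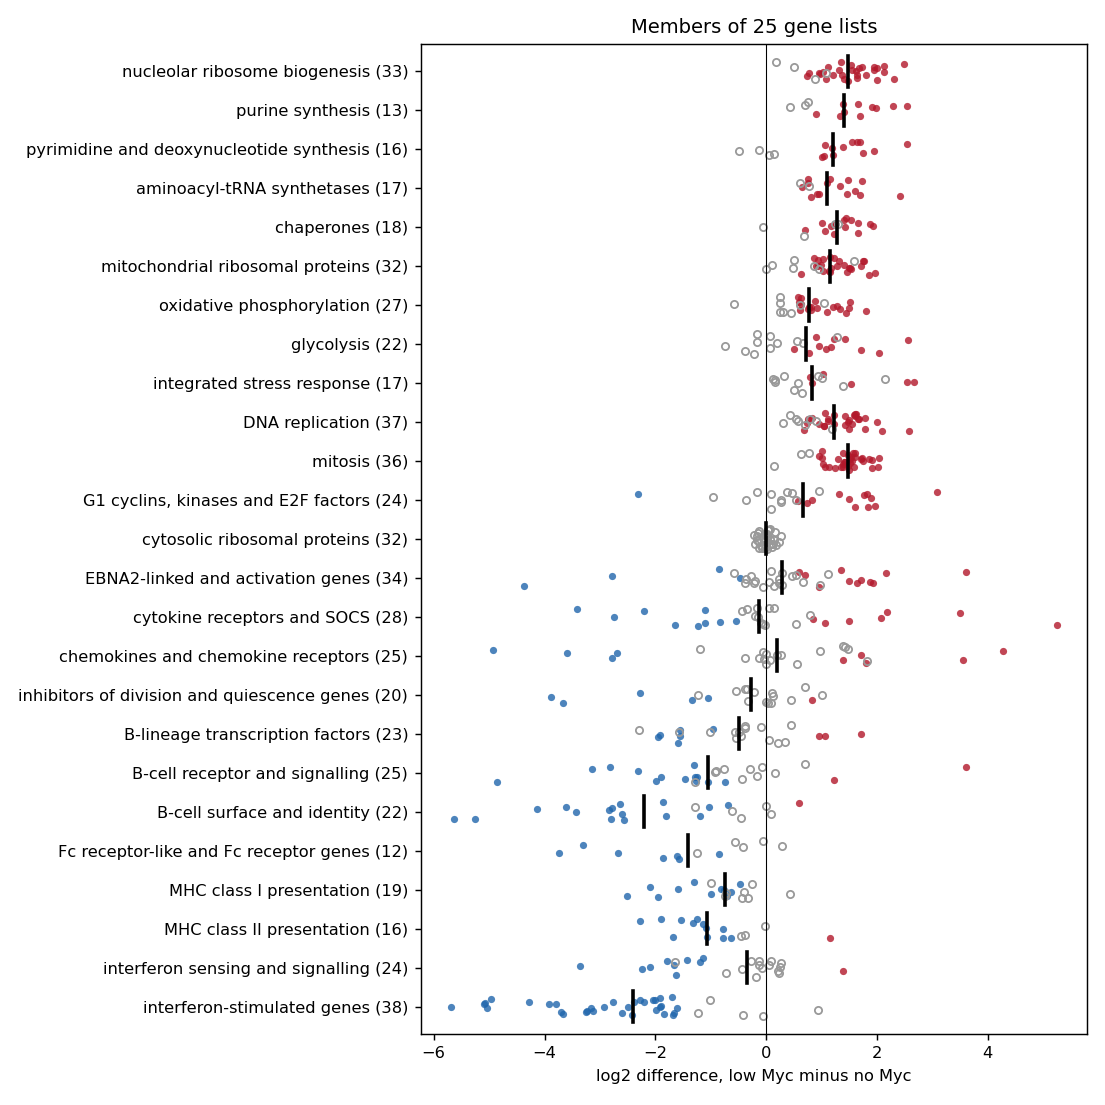
Each point is a member of 1 of 25 gene lists (measured members in parentheses) at its log2 difference, low Myc minus no Myc, with filled red or blue points for genes called higher or lower, open points for the rest and a bar at the list median. Nucleolar, nucleotide, replication and mitosis lists lie to the right with medians of 1.20 to 1.47, cytosolic ribosomal proteins sit at 0, and B-cell surface and interferon-stimulated genes lie to the left with medians of -2.21 and -2.40.

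Most enzymes of nucleotide synthesis were higher. For purines, 10 of 13 were higher and 0 lower (median 1.40). PAICS, which carries out consecutive steps of the pathway, read 3893, 4602 and 2785 against 554 and 719.7 (2.54 ± 0.25, 5.83-fold, adjusted p = 0.00559). PFAS (4.90-fold), PPAT, the committed enzyme (3.97-fold), IMPDH2 (3.77-fold) and PRPS2 (3.25-fold) were higher too. For pyrimidines and deoxynucleotides, 12 of 16 were higher (median 1.20). NME1, a nucleoside diphosphate kinase, read 5853, 7052 and 4382 against 752 and 1263 (5.80-fold), CTPS1, which makes CTP, was 3.87-fold higher, and both ribonucleotide reductase subunits RRM1 (3.35-fold) and RRM2 (3.10-fold) were higher. The counts without each array labelled no Myc in turn were 8 and 10 for purines and 10 and 11 for pyrimidines.

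Genes of amino acid supply were higher in part. Serine and one-carbon metabolism had 7 of 14 members higher (median 0.90). After PSAT1, GCSH of the glycine cleavage system was 5.21-fold higher, and PHGDH, the first enzyme of serine synthesis, read 1058, 800.2 and 858 against 271 and 309 (3.11-fold). Among amino acid transporters 6 of 14 were higher. SLC7A1, a carrier of arginine and lysine, read 1693, 1957 and 1368 against 195 and 231 (7.80-fold), and SLC43A3 (4.93-fold), SLC7A5 (4.46-fold) and SLC7A11, the cystine carrier (3.33-fold), were higher. SLC7A6 was the 1 transporter called lower (-0.83). All 4 called polyamine genes were enzymes of synthesis: SRM (4.58-fold), AMD1 (3.87-fold), ODC1 (2.79-fold) and SMS (2.08-fold), of 12 measured. The breakdown genes SAT1 (-2.11, adjusted p = 0.0579) and PAOX (-0.48, adjusted p = 0.0574) just missed the threshold, with groups apart. SMOX was not called (-0.13, adjusted p = 0.81). Of 17 genes of the integrated stress response, a programme that answers amino acid shortage among other stresses, 6 were higher and 0 lower (median 0.83). ASNS, which makes asparagine, read 1817, 1108 and 1656 against 205 and 269 (6.37-fold), and CBS (5.84-fold) and DDIT4, an inhibitor of mTORC1 signalling (2.87-fold), came next. Fewer were called in each of the 2 fits that leave out 1 array labelled no Myc and add the high Myc arrays. The list median was 0.77 against the library labelled no Myc replicate 1 and 0.99 against no Myc replicate 2.

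Mitochondrial genes were higher in most cases, and glycolytic genes in part. Mitochondrial ribosomal proteins were higher in 25 of 32 cases (median 1.16), genes of oxidative phosphorylation in 19 of 27 (median 0.78) and genes of mitochondrial protein import in 12 of 19 (median 1.05). MRPL4 of the large mitochondrial subunit was 3.91-fold higher. CYCS, cytochrome c, read 7005, 7208 and 5269 against 1847 and 1842 (1.80 ± 0.17, 3.49-fold). TIMM13 (3.35-fold) and TOMM40, the pore of the outer membrane (2.86-fold), stood for protein import. The TCA cycle and glutamine list had 11 of 18 higher, led by GLUL, glutamine synthetase, at 2155, 1166 and 1134 against 242 and 238 (5.91-fold). Glycolysis had 11 of 22 higher, among them GPI (4.09-fold), PFKM (3.28-fold) and ENO2, the neuronal enolase (5.89-fold), which read 254, 372 and 144 against 38.5 and 42.8. Cholesterol and fatty acid synthesis had 3 of 21 higher, DHCR7 (2.16), SC5D (1.28) and EBP (1.23). No member of these 6 lists was called lower. Without each array labelled no Myc in turn the counts were 23 and 26 for mitochondrial ribosomal proteins and 16 and 19 for oxidative phosphorylation, and the 3 higher genes of cholesterol and fatty acid synthesis became 2 and 1.

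Most genes of DNA replication and mitosis were higher in low Myc. All 37 replication genes and all 36 mitosis genes read higher on average, of which 29 and 33 were called. CDC6, which loads the replicative helicase, read 898, 1300.0 and 761 against 138 and 186 (2.58 ± 0.26, 6.00-fold). POLE2 (4.24-fold), MCM10 (4.01-fold), RFC4 of the clamp loader (3.43-fold) and ORC1 of the origin recognition complex (3.42-fold) followed. CDC20, an activator of the anaphase-promoting complex, read 1604, 1851 and 1253 against 343 and 499 (1.90 ± 0.24, 3.74-fold), and SPC25 of the kinetochore 337, 352 and 252 against 66.9 and 86.3 (4.08-fold). In both genes every low Myc array was well above both others, and replicate 3 was the lowest of low Myc. MAD2L1 of the spindle checkpoint (4.03-fold), cyclin B1, CCNB1 (3.74-fold), and NCAPG of condensin (3.60-fold) were the next. The counts were 24 and 30 for replication and 31 and 34 for mitosis without each array labelled no Myc in turn.

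Replication promoters are known for E2F sites and mitosis promoters for the cell cycle genes homology region (CHR) beside CCAAT boxes. An E2F site (TTTGGCGC or TTTCCCGC or TTTCGCGC) was in 11 of 31 replication promoters found (35.5%) beside 2.38% of all promoters and 5.41% of those of genes called higher. The CHR sequence TTTGAA was in 15 of 30 mitosis promoters (50%) beside 13.6% of all and 11.8% for genes called higher. CCAAT was in 22 of 30 (73.3%) beside 33% and 40.4%, and it was also in 18 of 31 replication promoters (58.1%). The promoters of GINS2, a subunit of the replicative helicase that was 1.68 higher, and of CDC20 are shown because theirs hold these letters, in capitals. They are chr16:85688955-85689154 on the - strand and chr1:43358781-43358980 on the + strand, 200 bases before the start, 5′ to 3′. The E2F site of GINS2 begins 31 bases before the start and lies on the opposite strand, and the CHR matches of CDC20 begin 178 and 65 bases before it.
GINS2: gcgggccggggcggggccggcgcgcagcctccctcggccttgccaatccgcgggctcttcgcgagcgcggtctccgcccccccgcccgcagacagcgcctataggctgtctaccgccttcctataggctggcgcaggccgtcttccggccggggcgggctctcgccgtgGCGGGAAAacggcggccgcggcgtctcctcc
CDC20: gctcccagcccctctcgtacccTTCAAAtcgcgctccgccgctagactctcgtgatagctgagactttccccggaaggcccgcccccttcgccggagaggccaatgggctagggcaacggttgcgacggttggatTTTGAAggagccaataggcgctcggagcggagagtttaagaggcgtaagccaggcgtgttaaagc

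**Figure D5:**
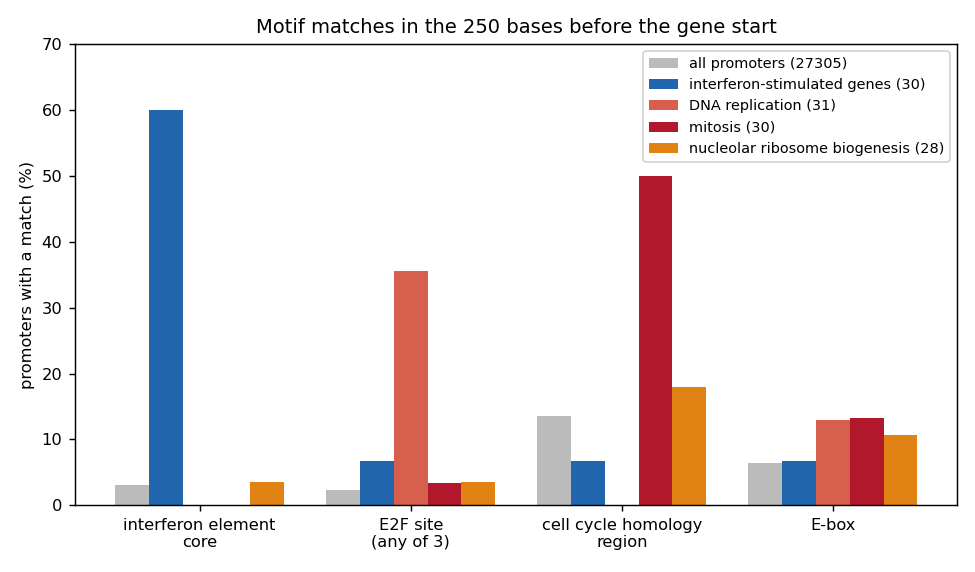
Bars give the percent of promoters with at least 1 match in the 250 bases before the gene start, for 4 gene lists and for all 27305 promoters (number of promoters in parentheses). The interferon element core stands at 60% in interferon-stimulated genes, E2F sites at 35.5% in replication genes and the cell cycle homology region at 50% in mitosis genes, against 3.07%, 2.38% and 13.6% of all promoters.

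Genes that drive the G1 phase and genes that hold it back both differed. Of 24 G1 cyclins, kinases and E2F factors 12 were higher and 1 lower. CDK4 read 3277, 3741 and 2794 against 783 and 1088 (3.52-fold), and CDK6 834, 1859.8 and 398 against 95.0 and 106 (8.48-fold), with a spread in low Myc that was wide but apart from no Myc. CDC25A, a phosphatase that frees the kinases (3.89-fold), cyclin E2, CCNE2 (3.69-fold), and E2F8 (3.55-fold) were higher. RB1, the retinoblastoma protein that holds E2F factors, was the 1 lower member, at 431, 164 and 506 against 1949 and 1381 (-2.32 ± 0.51, adjusted p = 0.0355). Inhibitors of division and quiescence genes had 5 of 20 lower and 1 higher. Besides TXNIP, the quiescence factor KLF2 read 76.1, 214 and 182 against 1966 and 1704 (12.7-fold lower) and the antiproliferative BTG1 1563, 1086 and 1789 against 7862 and 6203 (4.82-fold lower), while FOXO1 (-1.33) and CDKN2D (-1.06) fell less. The count of 5 lower was 3 and 6 without each array labelled no Myc in turn. GADD45B was higher (0.83), and the kinase inhibitors CDKN1A (0.71, adjusted p = 0.116) and CDKN1B (0.45, adjusted p = 0.507) were not called. Of 19 DNA repair genes 9 were higher, led by the checkpoint kinase CHEK1 (4.44-fold), and the damage kinase ATM was lower, at 287, 245 and 169 against 1011 and 645 (-1.82).

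Most interferon-stimulated genes were lower in low Myc than in no Myc, and the list had the lowest median of the 52 lists. Of 38 measured, 33 were lower and 0 higher, with a median of -2.40. LAMP3 was the 1 member with a positive difference (0.94, adjusted p = 0.297, not called). CXCL9, CXCL10 and CXCL11 were counted with the chemokines and not here. CXCL9 was called higher (1.80), and CXCL10 (1.82, adjusted p = 0.116) and CXCL11 (-0.06, adjusted p = 0.919) were not called. IFI44L read 124, 34.9 and 73.9 in low Myc and 6623 and 1872 in no Myc (-5.69 ± 0.71, adjusted p = 0.00897). IFIT1, which binds viral RNA lacking cap methylation, read 77.2, 39.3 and 63.3 against 3327 and 1123 (-5.07 ± 0.51), and ISG15, a ubiquitin-like modifier, 727, 397 and 782 against 11619 and 6162 (-3.80 ± 0.40). For all 3 genes the library labelled no Myc replicate 1 was the brightest array, no Myc replicate 2 lay below it, and the low Myc arrays were far below both. IFI27 (-5.08), SAMD9L (-5.04) and IFI44 (-4.97) were likewise low. The library labelled no Myc replicate 1 exceeded no Myc replicate 2 at 37 of the 38 genes, by a median of 0.89, beside 0.00 over all genes. The list median was -2.74 against the former and -2.03 against the latter. The count was 30 and 34 without each array labelled no Myc in turn.

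The core of the interferon-stimulated response element (GAAA, any 2 bases, GAAA) was in 18 of 30 promoters of these genes found (60%) beside 3.07% of all promoters and 5.66% of those of genes called lower. The promoter of IFI44L is shown because it holds 2 such cores, in capitals, beginning 164 and 73 bases before the start. Its 200 bases are chr1:78620248-78620447 on the + strand, 5′ to 3′.
IFI44L: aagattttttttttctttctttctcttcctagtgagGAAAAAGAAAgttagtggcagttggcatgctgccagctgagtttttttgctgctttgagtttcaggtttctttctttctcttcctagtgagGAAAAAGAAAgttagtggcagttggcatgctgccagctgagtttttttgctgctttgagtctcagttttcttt

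Sensors and signalling genes of the interferon system were lower in part. Of 24 genes 9 were lower and 1 higher (median -0.35). IRF7, the main inducer of type I interferon, read 210.1, 170.0 and 178 against 2712 and 1343 (10.3-fold lower), and IRF9, the DNA-binding part of the ISGF3 complex, 788, 428 and 776 against 3199.7 and 2323 (4.26-fold lower). The RNA sensors RIGI (4.73-fold lower), IFIH1 (3.16-fold lower) and EIF2AK2, the kinase PKR (3.44-fold lower), were lower as well. These are themselves known to be induced by interferon. The receptor chain IFNGR1 was higher, at 2096, 2207 and 1352 against 860.4 and 578 (1.39), and the type I receptor chains IFNAR1 (-0.19, adjusted p = 0.801) and IFNAR2 (0.08, adjusted p = 0.916) were not called.

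Most measured genes of antigen presentation were lower in both classes. For MHC class I, 11 of 19 genes were lower and 0 higher (median -0.74). NLRC5, the class I transactivator, read 354, 313 and 409.9 against 1510.4 and 1551 (-2.10 ± 0.15), TAP2 of the peptide transporter 738, 562 and 646 against 2984 and 2109 (-1.96 ± 0.20), and the peptide trimmer ERAP2 fell most (-2.52 ± 0.29). PSMB9 of the immunoproteasome (-1.60) and HLA-E (-1.30) were lower, whereas the light chain B2M was not called (-0.25, adjusted p = 0.251). For MHC class II, 12 of 16 were lower and 1 higher (median -1.07). CIITA, the class II transactivator, read 171, 275 and 134 against 703 and 679.9 (-1.91 ± 0.30), and HLA-DOB, which modulates peptide loading, 511, 458 and 377 against 2085 and 2247 (-2.28 ± 0.16). HLA-DPB1 was very bright on every array, at 4585, 4079.9 and 3862 against 11222 and 9733, and still lower (-1.33), while HLA-DRA was not called (-0.45, adjusted p = 0.114). The single member called higher was RFXAP, a subunit of the RFX promoter complex (1.15). HLA genes are near-identical in places, so probe sets may read more than 1 of them. The counts of lower members were 7 and 9 for class I and 8 and 11 for class II without each array labelled no Myc in turn.

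Most B-cell surface and identity genes were lower in low Myc. Of 22 genes 16 were lower and 1 higher (median -2.21, and -2.22 and -2.11 against each array labelled no Myc). VPREB3, a pre-B-cell gene, read 77.2, 99.3 and 186 against 6131 and 5063 (49.5-fold lower). CD37, a tetraspanin of mature B cells, read 555, 568 and 495 against 6488 and 5183 (10.8-fold lower), and CD180, a relative of toll-like receptors, 82.7, 95.7 and 104 against 1454 and 909 (12.3-fold lower). CD24 (17.6-fold lower) and GAPT (38.1-fold lower) fell as far. SPN (CD43) was the single member called higher (0.59). Fewer members were called lower in each of the 2 fits that leave out 1 array labelled no Myc and add the high Myc arrays.

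The B-cell receptor and its signalling proteins were lower in 13 of 25 cases and higher in 2 (median -1.05). CD79A read 1606, 1482 and 1879 against 7498 and 5763 (3.99-fold lower), CD79B 305, 364 and 341 against 2807 and 1995 (7.04-fold lower), and IGHM, the heavy chain of IgM, was lower by its brightest probe set (-2.31), with its 5 probe sets from -2.31 to 0.50. The 3 probe sets of CD79B ranged from -2.82 to 0.15. SYK, a kinase that the receptor recruits, read 729, 444 and 752 against 6333 and 4813 (8.84-fold lower), and the inhibitory receptor CD72 50.8, 61.5 and 69.5 against 1954 and 1550.0 (29.0-fold lower). The groups were far apart in each of these. CR2 (CD21), the complement receptor that Epstein-Barr virus uses, was higher instead, at 827, 744 and 464 against 61.5 and 47.3 (3.61 ± 0.28, 12.2-fold), as was the kinase FYN (1.22). The count of lower members was 7 and 14 without each array labelled no Myc in turn. Fc receptor-like and Fc receptor genes had 7 of 12 lower and 0 higher, among them FCRL2 (13.3-fold lower), FCRL5 (9.83-fold lower) and the inhibitory FCGR2B (3.04-fold lower).

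B-lineage transcription factors split. Of 23 measured, 6 were lower and 3 higher. PAX5, which keeps B-cell identity, read 1246, 1089.7 and 760.0 against 4114 and 2256 (3.01-fold lower), POU2F2 was 3.77-fold lower, TCF4 3.87-fold lower, and IKZF1 and SPIB 2.95-fold and 2.94-fold lower. The 2 probe sets of PAX5 differed by -1.59 and -0.12. IKZF2 was higher, at 1802, 2189 and 1063 against 443 and 551 (3.26-fold), as were ID2, an inhibitor of E proteins (2.09-fold), and RUNX3 (1.93-fold). EBF1 (0.06, adjusted p = 0.961) and IRF4 (0.46, adjusted p = 0.122) were not called. The higher calls were 0 and 0 and the lower calls 3 and 6 without each array labelled no Myc in turn. In germinal-centre genes, 2 of 14 were higher, GCSAM (1365, 1049 and 1399.9 against 90.0 and 108, 12.8-fold) and RGS16 (1.31). HDAC9 (-1.75) and LMO2 (-1.38) were the 2 lower, while BCL6 was not called (-0.14, adjusted p = 0.718). These shares were 14.3% in each direction, beside 8.19% higher and 6.6% lower of all genes tested, with a list median of -0.12. The higher germinal-centre genes were 0 and 1 and the lower 1 and 1 without each array in turn.

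EBNA2-linked and B-cell activation genes moved both ways. Of 34 genes 11 were higher (32.4%) and 4 lower (11.8%), with a median of 0.28. Besides CR2, CCR7, the receptor that guides lymphocytes to lymph nodes, read 4766, 3144 and 4887 against 1203 and 1351 (1.71 ± 0.22), and the costimulator CD86 2346, 2178 and 1961 against 656 and 489.5 (1.93 ± 0.17). The high Myc arrays read 97.4, 3494, 435 and 214 for CCR7, so that replicate 2 of that group was unlike the 3 others. BATF (2.15 ± 0.35) and BATF3 (1.88 ± 0.32), which pair with JUN proteins, were higher too. Lower were LTB, CCL17, a chemokine for T cells (-2.78 ± 0.26), FGR (-0.84) and BHLHE40 (-0.47). The low-affinity IgE receptor FCER2 (0.29, adjusted p = 0.482) and HES1 (-0.21, adjusted p = 0.751), both known EBNA2 or RBPJ targets, were not called. The list also holds activation genes in general and is not specific to EBNA2. Of its 11 higher genes 1 and 2 were counted without each array labelled no Myc in turn. The RBPJ core TGGGAA was in 7 of 26 promoters of the list found (26.9%) beside 21.1% of all promoters and 18.9% of those of genes called higher. The share is not particular to this list. It was 35.7% for nucleolar, 30% for mitosis, 19.4% for replication and 10% for interferon-stimulated promoters.

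Cytokine receptors and chemokines had some of the largest changes in both directions. Of 28 cytokine receptors and SOCS genes 7 were higher and 9 lower. IL18R1 read 506, 364 and 502 against 36.0 and 44.5 (11.3-fold), IL2RB 1223, 2135 and 1359 against 379 and 352 (4.18-fold), and IL21R was 2.82-fold higher. IL1R1, the signalling receptor for the ligand that IL1R2 traps, was also higher, at 124, 46.6 and 82.6 against 15.7 and 18.7, with a fold that is not exact at a no Myc mean log2 of 4.10. Lower were IL13RA1 (190.5, 117 and 144 against 1649 and 1512, 10.7-fold), IL10RA (6.68-fold), CSF2RB (4.62-fold) and both chains of the TGF-beta receptor, TGFBR2 (3.14-fold) and TGFBR1 (2.33-fold). Chemokines and their receptors had 5 of 25 higher and 4 lower. ACKR3, a scavenging receptor, read 796, 649 and 1068 against 43.7 and 41.3 (19.3-fold), CCL20 999.9, 542 and 210.3 against 39.2 and 43.1 (11.8-fold), and CXCL9 and CCL5 were 3.47-fold and 2.60-fold higher. The receptors CCR2 (39.6, 34.7 and 36.1 against 1252 and 998, 30.4-fold) and CX3CR1 (37.8, 37.3 and 52.0 against 585 and 443, 12.2-fold) were lower, as was CCR6, whose low Myc mean log2 of 4.63 makes its fold not exact. Without each array labelled no Myc in turn, the higher chemokine genes were 0 and 0 and the higher cytokine receptor genes 1 and 3, while the lower ones were 4 and 5 and 7 and 8.

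In the TNF and TNF receptor superfamily 2 of 27 were higher and 6 lower. TNFSF4 (OX40 ligand) read 1967, 702 and 2208 against 266 and 309.8 (5.05-fold) and TNFRSF8 (CD30) 1585, 1571 and 1238 against 414 and 672 (2.76-fold). Lower were TNFSF10 (TRAIL), at 10.6-fold, and CD27, a memory B-cell receptor, at 98.7, 97.0 and 102 against 678 and 701 (6.95-fold), with almost no spread in either group. The higher share is near the 8.19% over all genes tested, and without each array labelled no Myc in turn the higher members were 0 and 0 and the lower 4 and 6. NF-kappaB subunits and targets had 1 of 19 higher, GADD45B, and 2 lower, TNFAIP2 (-1.61) and IKBKE (-0.66), and the subunits REL (-0.10, adjusted p = 0.833) and RELB (-0.33, adjusted p = 0.176) were not called. These shares were 5.26% higher and 10.5% lower, beside 8.19% and 6.6% of all genes tested. Among BCL2 family genes the survival factor MCL1 read 1321, 1572 and 1427 against 5477 and 3938 (3.23-fold lower) and the death gene BIK 93.1, 52.2 and 87.4 against 1182 and 821 (13.1-fold lower). These 2 genes of opposite function were the only calls among 17 measured members (11.8% lower, beside 6.6% of all genes tested). BCL2 itself was not called (-0.01, adjusted p = 0.993). Immediate-early genes had 2 of 20 lower (10%, beside 6.6% of all genes tested), ZFP36 (-1.92) and DUSP5 (-1.90). Their list median was -0.49 against the library labelled no Myc replicate 1 and 0.00 against no Myc replicate 2.

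ALOX5, the lipoxygenase that starts leukotriene synthesis, had the largest fall among the listed genes, at 49.2, 16.9 and 97.4 in low Myc and 4246 and 3309.6 in no Myc (-6.44 ± 0.70, 86.6-fold lower). The fold depends on low Myc replicate 2, which read near the lowest intensities, yet all 3 low Myc arrays were far below both others. Its helper ALOX5AP was lower (-1.06), as was PTGS1, cyclooxygenase 1 (9.14-fold lower), while LTA4H (0.91) and PTGES2 (0.56) were higher, of 15 genes of this kind. Integrins and adhesion genes had 4 of 26 lower, led by ITGAM (10.5-fold lower) and ITGA4 (429.8, 372 and 394 against 2422 and 1441, 4.69-fold lower), and ACTN1 higher (1.39). Lysosome and autophagy genes had 5 of 26 lower, the cathepsins CTSS (-1.68), CTSB (-1.68), CTSZ (-1.53) and CTSH (-0.69) and the saposin precursor PSAP (-1.64), a count that was 3 and 4 without each array labelled no Myc in turn. The cathepsin CTSC moved the other way, at 2781, 3059.5 and 2224 against 634 and 621 (4.25-fold higher).

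In the Notch pathway 5 of 28 genes were higher, DTX4 (2694, 2405 and 2861 against 536 and 636, 4.53-fold), NOTCH2 (2.33-fold), NOTCH1 (2.22-fold), DTX1 (2.19-fold) and HEY1 (1.51-fold), and 2 lower, the protease ADAM17 (-1.04) and LFNG (-1.01). With the high Myc arrays added and both no Myc arrays kept, 3 of the list were higher. Fewer were called in each of the 2 fits that leave out 1 array labelled no Myc and add the high Myc arrays. The list median was 0.06 against the library labelled no Myc replicate 1 and 0.00 against no Myc replicate 2. Plasma cell and secretory genes had 2 of 22 higher, SEC11C (0.98) and the chaperone HSPA5 (0.90), and 2 lower, JCHAIN and CD38 (-1.81). Both shares are near those over all genes tested (8.19% and 6.6%), and without each array labelled no Myc in turn the counts were 0 and 1 higher and 0 and 0 lower. Hypoxia-responsive genes had 3 of 17 higher, EGLN1 (2.50), ERO1A (1.63) and BNIP3 (1.37), and 2 lower, KDM3A (-0.62) and EGLN3 (-0.51). These shares were 17.6% higher and 11.8% lower, beside 8.19% and 6.6% of all genes tested, with a list median of -0.03. Of 13 estrogen-responsive genes SIAH2 was higher, at 588, 629 and 385 against 156 and 147 (3.45-fold), and PDZK1 (-1.10) and the receptor ESR2 (-1.01) were lower. That is 7.69% higher and 15.4% lower, beside 8.19% and 6.6% of all genes tested.

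Few markers of other cell types were called. A mean log2 under 6 over the 5 arrays was found for 5 of 25 T and NK cell, 9 of 16 myeloid, 1 of 9 erythroid and platelet and 6 of 20 fibroblast and epithelial markers, and without detection calls the others cannot be said to be expressed. Of 16 myeloid markers 2 were lower in low Myc, LYZ (22.4, 24.5 and 23.1 against 775 and 333) and ITGAM (150.1, 114 and 99.6 against 1480.3 and 1069), and the summed intensity of the list was 1544, 1628 and 1411 in low Myc against 4171 and 3166 in no Myc. The defining markers CD14 (0.19), CSF1R (-0.03) and MPO (-0.12) were not called, with adjusted p of 0.664, 0.965 and 0.749. The part of these 2 genes in the B-cell and interferon results was not tested. NKG7 (137, 155 and 98.2 against 61.8 and 51.9) was the single T and NK cell marker called, of 25, and CDH1 (507, 147 and 168 against 21.1 and 29.4) the single fibroblast and epithelial marker, of 20, with a fold that is not exact at a no Myc mean log2 of 4.64. By limma 0 of 9 erythroid and platelet markers were called in either direction, with 0 at an unadjusted p under 0.05. Summed intensities of the T and NK list were 2679 to 3065 in low Myc and 2786 and 3111 in no Myc.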

How the data were processed

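The authors deposited 1 intensity per probe set and array on a linear scale, made with RMA per the submitters' processing notes, which give no version. The genome build and detection calls are not given in the sources used here, and the platform annotation named the probe sets. Log2 of the deposited intensity was used. Of 54675 probe sets, 41097 had 1 gene symbol, 1801 several and 11777 none, and 41043 matched RefSeq by Entrez gene. A gene was represented by its probe set with the highest mean log2 over all 9 arrays, and 10523 of the 19775 genes had more than 1 probe set. The 3 low Myc and 2 no Myc arrays entered a fit by limma 3.58.1 (R 4.3.3, lmFit, eBayes without trend, 3 residual degrees of freedom, two-sided, Benjamini-Hochberg adjustment over all genes, called under 0.05). The script was tested on simulated data. A fold against a mean log2 under 5 is not exact. Array medians were 75.3 to 80.3, and the number of arrays limits the precision.

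The 52 gene lists, 1205 entries with 1109 measured, and the rule for named genes were chosen with earlier results of these data known, and lists are described without a test. The rule took MYC, the 15 largest calls in each direction with groups apart and a mean log2 of at least 6 in both groups, up to 5 called members per list and direction, and defining members that were not called. Promoters were taken from RefSeq (GRCh38.p14) for called members with a motif. The alternatives were all 9 arrays, quantile normalization repeated, median centring, a filter at a mean log2 of 5, each gene's median probe set, array weights, a robust prior with a trend, a block for the replicate number, an adjusted p under 0.01, a 2-fold minimum and leaving out each array in turn.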

Additional observations from a re-analysis of the deposited data

How the results depend on the processing

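The number of calls depended on the arrays used. Leaving out 1 array at a time gave 0 to 3645 calls (0 to 2435 higher, 0 to 1210 lower), with no call by limma and 3367 genes at an unadjusted p under 0.05 without the library labelled no Myc replicate 1, where 2 residual degrees of freedom were left. MYC ranged from -0.50 (adjusted p = 0.572) without no Myc replicate 2 to 2.25 (adjusted p = 0.119) without replicate 1. With the high Myc arrays added to the fit, chosen after seeing the data, MYC was 2.25 and called without replicate 1 (adjusted p = 0.00842) and -0.50 without replicate 2 (adjusted p = 0.363). Those fits called 1855 genes (1021 higher, 834 lower) and 2666, and assumed that the lone no Myc array varies like the others. Array weights gave 4396 calls (2696 higher, 1700 lower). The stricter thresholds gave 689 calls at an adjusted p under 0.01 (287 higher, 402 lower) and 1805 at 2-fold or more (1023 higher, 782 lower). With the replicate block, that is the replicate number as a term, 4870 genes were called (3126 higher, 1744 lower), of which 2897 were shared, and MYC was 1.10. The labels do not say what a shared number means. Deviations correlated at 0.47 between the arrays numbered 1, at 0.10 between those numbered 2 and at 0.24 between low Myc replicate 3 and no Myc replicate 2. With 2 no Myc arrays these values mirror each other, and they do not show a pairing. Among the alternatives the remaining ones gave totals of 2393 to 3919. Of the 259 named genes that were called none changed direction under the alternatives run. Their groups did not overlap, so leaving out an array could not have reversed any of them. That part of the result was fixed in advance and is no sign of stability. Of the named genes not called, CD22 was -0.27 against no Myc replicate 1 and 0.13 against replicate 2. Calls lost were 259 and 213 on leaving out no Myc replicate 1 or 2, 125, 46 and 10 for low Myc replicates 1, 2 and 3, and 42 with the median of probe sets. The causes were not tested. Without detection calls, nothing is said on presence at low intensities.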

Other observations

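Subunits of the phagocyte NADPH oxidase, which B cells also carry and which makes superoxide, were lower in low Myc. These 5 genes were chosen after their values were seen. CYBB, the catalytic subunit, read 45.0, 28.8 and 94.4 in low Myc and 1473 and 1253 in no Myc (27.4-fold lower, adjusted p = 0.00592). NCF1 read 269, 389 and 183 against 2492 and 2274 (8.89-fold lower, adjusted p = 0.00567), and it has near-identical pseudogenes that its probe set may also read. NCF4 (-1.86, adjusted p = 0.039) and CYBA (-0.74, adjusted p = 0.0375) were lower too, and the GTPase RAC2 just missed the threshold (-0.65, adjusted p = 0.0507). The groups did not overlap for any of the 5. The 4 probe sets of CYBB differed by -4.77 to 0.00.

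High Myc replicate 2 read unlike the other high Myc arrays at the genes that separate low Myc from no Myc. It was above each of the 3 others at 12 of the 15 largest rises, such as IL1R2 (50.2, 1434, 62.2 and 56.6 on high Myc replicates 1 to 4) and ATP1B1 (84.7, 1252, 115 and 82.0). This held for 57.2% of the genes called higher in low Myc, beside 23.2% of all genes. It was below each of the others at 57.0% of the genes called lower, beside 27.4% of all genes. That array is not among the 5 arrays fitted for low Myc against no Myc. It does count in the choice of each gene's probe set and enters the fits with the high Myc arrays added.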
